A study of Homo sapiens with 8 samples.

Results

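The small heat shock proteins and the BAG (BCL2-associated athanogene) proteins are families of chaperones and HSP70 co-chaperones that work together. The genes described here are 6 small heat shock genes (HSPB1, HSPB2, HSPB6, HSPB7, HSPB8 and CRYAB) and 4 BAG genes (BAG1, BAG2, BAG3 and BAG5), found by symbol as 10 of the 58735 genes in the table. RNA was sequenced from LN229, a long-used line of human glioblastoma cells. For 4 samples the cells received, over 48 h, the proteasome inhibitor bortezomib (7.5 nM) together with the histone deacetylase inhibitor panobinostat (15 nM). This pair is called the combination. The other 4 samples were controls, which the protocol describes as DMSO, the solvent, and a sample label as untreated. The comparison addresses how RNA levels differ under the drug pair. Samples with either drug alone were not analysed here, so the parts of the drugs cannot be told apart.

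Small heat shock proteins share an alpha-crystallin domain, bind unfolded clients without using ATP and keep them from aggregating. BAG proteins share a BAG domain that binds HSP70 and makes it release ADP and its client. BAG1 links HSP70 to the proteasome, whereas BAG3 joins HSP70, HSPB8 and the ubiquitin ligase STUB1 (CHIP) in a complex that passes clients to autophagy. BAG2 inhibits STUB1. Cells in which the proteasome is blocked are known to make more BAG3 and HSPB8, and BAG3 and several small heat shock genes are known targets of the transcription factor HSF1.

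The libraries held 15198520 to 17324292 reads assigned to genes in the combination samples and 15189251 to 16795929 in DMSO. Levels are in FPKM, the authors' fragment count relative to exon length and sequencing depth. Mitochondrial genes took 11.7% to 15.1% of the reads after the combination and 4.31% to 6.69% in DMSO. Separate cultures are not mentioned for the 4 samples of a group, so the p-values measure only how these samples spread, and that spread may be technical. Of 7 glioblastoma line markers tested, VIM, NES, SOX2 and TNC were lower after the combination, FN1 was higher, and CD44 and EGFR did not pass. FN1 had 192 ± 12.4 FPKM after the combination and 163 ± 5.83 FPKM in DMSO (SD, n = 4 each, limma adjusted p = 0.00178). The summed level of the 8 line markers was 453 to 479 FPKM after the combination and 934 to 943 FPKM in DMSO. In bulk RNA, fewer cells of a kind and less RNA per cell cannot be told apart.

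Promoters of 8 of the 10 genes were found in RefSeq (GRCh38.p14). The 4 shown here belong to the 3 genes that were higher after the combination (HSPB8, BAG3 and BAG2) and to HSPB1, the most abundant gene, which was lower. Each sequence is the 250 bases before the annotated start on the plus strand, 5′ to 3′. They lie at chr12:119178681-119178930 (HSPB8), chr10:119651130-119651379 (BAG3), chr6:57172076-57172325 (BAG2) and chr7:76302423-76302672 (HSPB1). RefSeq and GENCODE starts differ. The printed HSPB8 sequence therefore lies wholly inside an exon block of the GENCODE gene (119178642 to 119179679). The HSPB1 and BAG3 sequences overlap their GENCODE genes in part. Capitals mark the letters of a 2-unit heat shock element (GAANNTTC or TTCNNGAA) in HSPB8, BAG2 and HSPB1, and of an AP-1 element (TGANTCA) in BAG3.
HSPB8: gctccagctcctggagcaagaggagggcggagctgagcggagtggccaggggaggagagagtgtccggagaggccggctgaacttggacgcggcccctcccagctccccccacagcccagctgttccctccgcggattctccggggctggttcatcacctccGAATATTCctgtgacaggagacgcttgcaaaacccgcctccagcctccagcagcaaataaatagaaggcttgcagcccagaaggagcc
BAG3: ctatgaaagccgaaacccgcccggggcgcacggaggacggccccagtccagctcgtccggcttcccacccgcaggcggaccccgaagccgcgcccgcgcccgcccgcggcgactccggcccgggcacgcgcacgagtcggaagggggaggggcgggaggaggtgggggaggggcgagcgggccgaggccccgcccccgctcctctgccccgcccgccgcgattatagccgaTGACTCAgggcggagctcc
BAG2: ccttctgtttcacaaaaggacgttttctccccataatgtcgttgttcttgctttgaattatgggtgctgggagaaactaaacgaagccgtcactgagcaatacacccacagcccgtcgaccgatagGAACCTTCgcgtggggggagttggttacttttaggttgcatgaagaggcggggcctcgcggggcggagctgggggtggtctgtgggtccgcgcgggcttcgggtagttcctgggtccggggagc
HSPB1: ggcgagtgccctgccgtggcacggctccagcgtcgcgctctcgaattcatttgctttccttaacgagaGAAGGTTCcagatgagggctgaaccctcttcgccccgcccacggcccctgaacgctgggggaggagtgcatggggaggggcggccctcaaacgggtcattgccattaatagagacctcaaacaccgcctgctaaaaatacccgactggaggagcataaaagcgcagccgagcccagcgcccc

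The search ran over both strands of windows that also held the first 50 bases from the start, and both the heat shock and the AP-1 letters read the same on either strand. HSPB8 held the heat shock letters GAATATTC at positions -88 to -81 from the start, and again, as GAAGTTTC, within the first bases of the transcript. BAG2 held GAACCTTC at positions -124 to -117, and HSPB1 held GAAGGTTC at positions -182 to -175. BAG3 held the AP-1 letters TGACTCA at positions -19 to -13, and none of the heat shock letters in this window. Of all 35116 promoter windows, 13.5% held a 2-unit heat shock element, 7.71% an AP-1 element and 13.3% the antioxidant element TGACNNNGC. An element of 3 alternating GAA and TTC units was in 0.490% of all windows and in no window of these genes. HSPB6 held 2 heat shock matches and 1 antioxidant match, and HSPB1 held 2 antioxidant matches after its start. No match was found in the windows of HSPB7, BAG1 or BAG5. The windows of BAG3 and BAG5 were rich in G and C (75.3% in BAG3 and 77.7% to 78.7% in BAG5, against a median of 58.7% over all windows).

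Of the 10 genes, 7 reached a mean of at least 1 FPKM over the 8 samples and were tested. All 7 passed, 3 higher and 4 lower after the combination. Over all 13296 genes tested, 77.8% passed, 36.9% higher and 41.0% lower, so the share that passed in this family is read against a background in which most genes moved. The groups did not overlap in any of the 7, as in 72.7% of all tested genes. What the 7 show is the direction and size of each change. HSPB8 more than doubled, BAG3 and BAG2 rose less, HSPB1 and CRYAB fell, and BAG1 and BAG5 fell less. Over all genes tested the median absolute log2 fold change was 0.442. BAG3 (0.471) and BAG2 (0.441) lay near that size, and BAG1 (-0.324) and BAG5 (-0.346) under it. HSPB8, HSPB1 and CRYAB changed by more. Fold changes below are limma estimates on the log2(FPKM + 1) scale, which understates changes of low genes, with p adjusted by Benjamini-Hochberg over all genes tested.

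**Figure D1:**
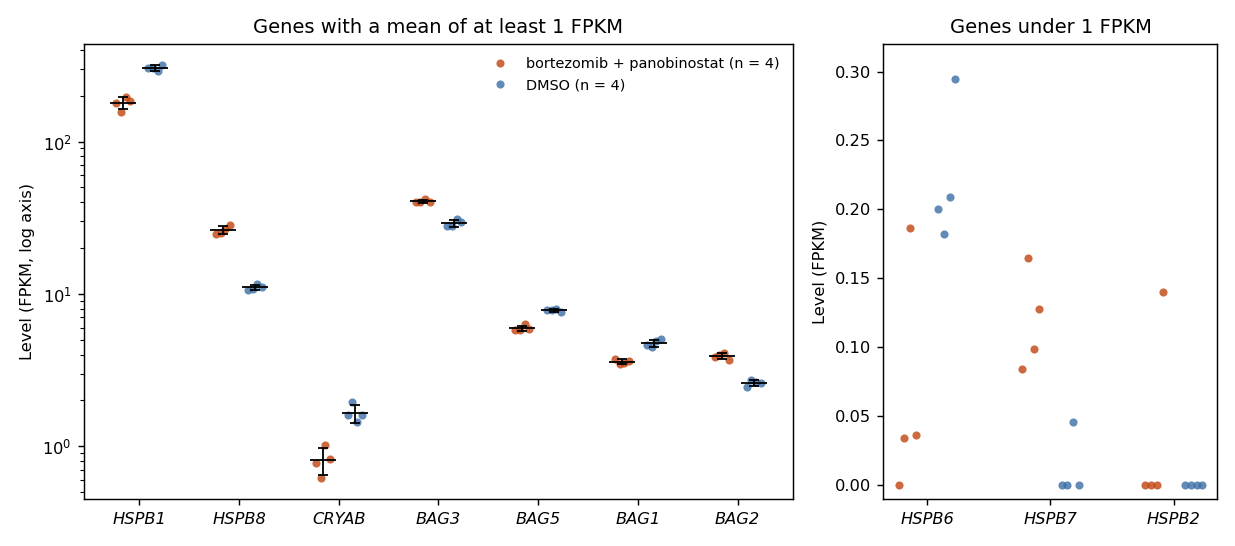
Level of each gene in every sample, combination left and DMSO right. In the left panel (log axis) bars are the mean ± SD of 4 samples, and in the right panel (linear axis) the points alone are drawn. HSPB1 stands between 157 and 319 FPKM in all 8 samples, HSPB8 moves up, and CRYAB lies near 1 FPKM.

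HSPB8 (HSP22) is the small heat shock protein that binds BAG3. Its gene lies on chromosome 12 (119178642 to 119221131, GRCh38) with 2860 bases of exon, none under exons of other genes. It stood at 24.9, 24.9, 26.7 and 28.3 FPKM in the combination samples and at 10.7, 10.7, 11.5 and 11.1 FPKM in DMSO. Every combination sample was more than double every DMSO sample, and the ratio of the group means was 2.38. The log2 fold change was 1.18 ± 0.0470 (SE, adjusted p = 1.56e-08), with 6.69% of all tested genes rising by more. After the combination 88.1% of tested genes had a lower level than HSPB8, and in DMSO 69.4% had.

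HSPB1 (HSP27), which stabilises actin filaments and is phosphorylated by the MAPKAP kinases, was the most abundant of the 10 genes in every sample. It lies on chromosome 7 (76302544 to 76304295) and has 1634 bases of exon. Its level was 178, 157, 195 and 184 FPKM after the combination, against 302, 303, 289 and 319 FPKM in DMSO. All combination samples lay well under the lowest DMSO sample, and the fitted log2 change was -0.76 ± 0.0642 (SE, adjusted p = 3.05e-06), a ratio of means of 0.589. Even so, 98.7% of tested genes stood below HSPB1 after the combination and 99.4% in DMSO.

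CRYAB, the alpha-B-crystallin of lens, muscle and glia, was expressed at a low level. It had 0.779, 0.617, 1.02 and 0.823 FPKM after the combination, from 32 to 48 reads a sample. In DMSO it had 1.59, 1.96, 1.44 and 1.61 FPKM, from 73 to 95 reads a sample. The groups were apart, the ratio of means was 0.490, and the log2 fold change was -0.55 ± 0.0939 (SE, adjusted p = 0.000444). The pseudocount weighs on this low gene, and the voom estimate from the recovered reads was -1.04 (adjusted p = 4.24e-05). Markers of the tissues in which CRYAB is abundant did not move one way. The summed level of 7 astrocyte markers was 40.03 to 43.2 FPKM after the combination and 257 to 272 FPKM in DMSO, and most of the DMSO sum was S100B (17.8 ± 0.823 FPKM after the combination and 257 ± 6.59 FPKM in DMSO). Of the 2 astrocyte markers tested, S100B was lower and GJA1 was higher, at 22.03 ± 0.393 FPKM after the combination and 7.32 ± 0.249 FPKM in DMSO. Under the filter, SLC1A3, SLC1A2 and ALDH1L1 lay higher after the combination without overlap, GFAP lay lower without overlap, and AQP4 overlapped. For 6 oligodendrocyte markers the sum was 9.09 to 9.65 FPKM after the combination and 81.0 to 97.2 FPKM in DMSO, and all 3 that were tested were lower. Under the filter, MOG lay lower without overlap, and MOBP lay higher without overlap (6 reads after the combination and 1 in DMSO). MBP overlapped, with 26 reads in each group. The sum of 8 lens markers was 19.2 to 20.4 FPKM after the combination and 9.21 to 9.48 FPKM in DMSO, mostly BFSP1, which was the 1 tested and was higher. The sum of muscle and heart markers, given with HSPB7, lay higher too. The part of such cells in the result was not tested.

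CRYAB lies on chromosome 11 (111908565 to 111923722, minus strand), and HSPB2 on the plus strand of the same stretch (111912242 to 111914093). Annotated exons of the 2 genes overlap, and exons of other genes cover 20.6% of the exon length of CRYAB and 59.7% of that of HSPB2. The read-through gene HSPB2-C11orf52, which shares this stretch, had 0 reads in all 8 samples. Strand use in the counting was not stated in the labels, and without strand the reads of overlapping genes cannot be told apart.

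**Figure D2:**
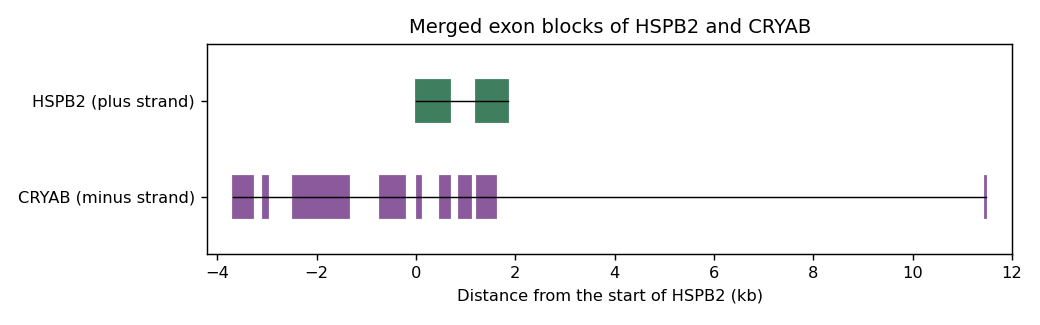
Merged exon blocks (boxes) of HSPB2 and CRYAB from GENCODE release 29, to scale, with the distance in kb from the start of HSPB2 on the horizontal axis. Both exon blocks of HSPB2 meet blocks of CRYAB on the opposite strand.

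The other small heat shock genes were at the edge of detection. HSPB2, a small heat shock protein of muscle, had 3 reads in 1 combination sample and 0 reads in the other 7 samples, so no change was detectable at this depth. HSPB6 (HSP20), which relaxes smooth muscle, had 0, 1, 5 and 1 reads after the combination and 6, 5, 6 and 8 reads in DMSO. In FPKM it stood at 0, 0.0340, 0.186 and 0.0363 after the combination and at 0.200, 0.182, 0.209 and 0.294 in DMSO. One combination sample reached into the DMSO range, and the difference did not pass (exact permutation test, two-sided p = 0.0571, n = 4 each). A model without the filter on low values called HSPB6 lower (limma adjusted p = 0.0332, voom adjusted p = 0.0179). Of its exon length 38.2% lies under exons of AC002398.2 on the opposite strand, a gene with 0 reads in these samples.

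HSPB7, the cardiovascular small heat shock protein, went the other way. It had 5, 11, 6 and 8 reads after the combination and 0, 0, 3 and 0 reads in DMSO. The groups did not overlap, and the exact permutation test gave two-sided p = 0.0286, the smallest that 4 against 4 samples can give. The ratio of summed reads, scaled to the libraries, was 10.3 (exact 95% interval 3.2 to 52.7, counting error only). HSPB7 stayed at or under 0.165 FPKM in every sample.

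The genes listed as small heat shock genes outside these 6 include HSPB3, which pairs with HSPB2 in muscle. It had 60 reads over the combination samples and 1 read over the DMSO samples. Its level was 1.42, 1.57, 0.819 and 0.955 FPKM after the combination and at most 0.0799 FPKM in DMSO (exact permutation test, two-sided p = 0.0286, n = 4 each). The ratio of its summed reads was 61.8 (exact 95% interval 10.7 to 2480). HSPB11, a component of the transport machinery of cilia, is on this list by its symbol. It fell to 5.84 ± 0.530 FPKM after the combination, against 11.4 ± 0.930 FPKM in DMSO (SD, n = 4 each). HSPB9 did not pass (exact permutation test, two-sided p = 0.114, n = 4 each), and CRYAA, the lens alpha-A-crystallin, had 0 reads in all samples.

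The sum of muscle and heart markers lay higher after the combination, as HSPB7 and HSPB3 did. The sums of low microglia, macrophage and endothelial markers did so too. For 7 microglia and macrophage markers the sum was 0.494 to 0.842 FPKM after the combination and 0.0687 to 0.171 FPKM in DMSO. For 5 endothelial markers it was 0.949 to 1.33 FPKM after the combination and 0.294 to 0.463 FPKM in DMSO. After the combination these sums were mostly CSF1R, and PECAM1 with VWF. Not all low markers lay higher. CLDN5, of the endothelial list, had 14 reads after the combination and 36 in DMSO, with overlapping groups. GFAP (32 reads after the combination and 175 in DMSO) and MOG (10 and 44) lay lower without overlap. The summed level of the 12 muscle and heart markers was 1.70 to 2.32 FPKM after the combination and 0.460 to 0.741 FPKM in DMSO. Of these, 12 of 12 were detected after the combination and 9 of 12 in DMSO. MYH6 (4 reads), MYL3 (3 reads) and MYOD1 were detected only after the combination. Over all genes, 27742 to 29035 had a read in a combination sample and 25046 to 25719 in a DMSO sample. DES, the muscle intermediate filament, had 132 reads after the combination and 2 in DMSO. ACTA1 had fewer reads after the combination (7, against 20 in DMSO), and CKM had 11 after the combination and 12 in DMSO. Both of these overlapped between the groups. The myogenic factor MYOD1 had 1 read after the combination and 0 in DMSO, and MYOG had 4 reads after the combination and 5 in DMSO. No muscle marker reached a mean of 1 FPKM, and the part of such cells or programmes in the result was not tested.

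Among the BAG genes, BAG3 was the most abundant of the 4. Its protein is the HSP70 co-chaperone of selective autophagy, and the gene lies on chromosome 10 (119651370 to 119677819) with no exon under another gene. BAG3 stood at 40.1, 40.1, 42.1 and 40.4 FPKM after the combination and at 27.7, 28.0, 30.8 and 29.8 FPKM in DMSO. The lowest combination sample was well above the highest DMSO sample. The ratio of means was 1.40, and the fitted log2 change was 0.47 ± 0.0393 (SE, adjusted p = 2.87e-06).

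BAG2, the inhibitor of STUB1, had 3.85, 3.97, 4.10 and 3.67 FPKM after the combination and 2.46, 2.71, 2.65 and 2.62 FPKM in DMSO. All combination samples were higher, and the log2 fold change was 0.44 ± 0.0471 (SE, adjusted p = 1.73e-05). On chromosome 6 (57172326 to 57189833), 44.2% of its exon length lies under exons on the opposite strand, those of RAB23 and ZNF451-AS1. RAB23 stood at 2.26 ± 0.110 FPKM after the combination and 2.58 ± 0.196 FPKM in DMSO (SD, n = 4 each, limma adjusted p = 0.0554), and ZNF451-AS1 had 36 reads after the combination and 44 in DMSO. Strand use in the counting was not stated, so reads in the shared stretch cannot be told apart. The part of these neighbours in the BAG2 values was not tested.

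BAG1, the co-chaperone that tethers HSP70 to the proteasome, was lower. It had 3.75, 3.47, 3.49 and 3.64 FPKM after the combination and 4.59, 4.46, 4.89 and 5.03 FPKM in DMSO. The groups were apart, and the fitted change was -0.32 ± 0.0463 on the log2 scale (SE, adjusted p = 0.000137). BAG1 lies on chromosome 9 (33247820 to 33264720).

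BAG5, which carries several BAG domains and restrains HSP70 and the ubiquitin ligase parkin, was lower by a like amount. Its level was 5.75, 5.82, 6.31 and 5.86 FPKM after the combination, against 7.86, 7.84, 7.96 and 7.59 FPKM in DMSO. The log2 fold change was -0.35 ± 0.0374 (SE, adjusted p = 1.87e-05), with no overlap. BAG5 lies on chromosome 14 (103556544 to 103562831), with 1.37% of its exon length under KLC1. In the rest of the family, BAG4, an inhibitor of death receptor signalling, had 3.52 ± 0.146 FPKM after the combination and 4.07 ± 0.0986 FPKM in DMSO (adjusted p = 0.00468), a call lost with upper-quartile scaling (adjusted p = 0.0562) and with quantile normalization (adjusted p = 0.158). BAG6, a chaperone for proteins bound for membranes, had 44.9 ± 1.61 FPKM after the combination and 45.8 ± 0.290 FPKM in DMSO (SD, n = 4 each), a difference that did not pass (adjusted p = 0.452).

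**Figure D3:**
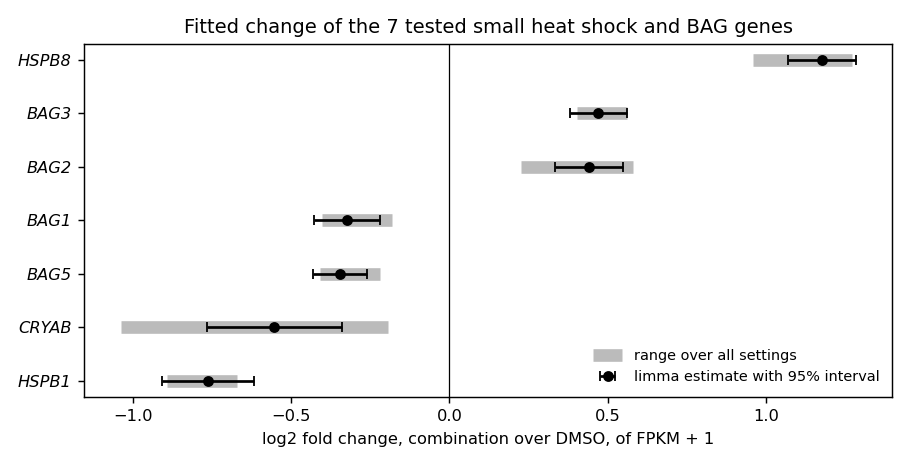
Fitted log2 fold change (combination over DMSO) of the 7 tested genes, with points and bars for the limma estimate and its 95% interval, and grey bands for the range over all alternative settings. HSPB8, BAG3 and BAG2 lie right of 0 and the other 4 genes left of 0 in every setting that gave a value.

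The order of levels within the families partly changed. After the combination the order was BAG3, BAG5, BAG2 and BAG1, with BAG2 above BAG1 in each of the 4 libraries, though the ranges of these 2 over samples overlapped. In DMSO the order was BAG3, BAG5, BAG1 and BAG2, with no overlap between neighbours. Among the small heat shock genes the order HSPB1, HSPB8, CRYAB held in all 8 samples.

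The ratio of BAG3 to BAG1, in FPKM within a library and so free of the library scaling, was 10.7, 11.5, 12.04 and 11.1 after the combination. In DMSO it was 6.04, 6.27, 6.30 and 5.91. The 2 sets of ratios were apart, with 11.3 ± 0.577 after the combination and 6.13 ± 0.184 in DMSO (SD, n = 4 each, given with no test). BAG3 made up 75.2% ± 0.166 of the summed FPKM of the 4 BAG genes after the combination and 65.7% ± 0.755 in DMSO. That sum was 53.3 to 56.0 FPKM after the combination and 42.6 to 46.3 FPKM in DMSO. FPKM here divides by the merged length of all annotated exons, 2747 bases for BAG3 and 7073 for BAG1. Orders, ratios and shares between genes therefore depend on these lengths. The fold difference of a ratio between the groups does not.

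BAG3 and its partner HSPB8 did not keep 1 ratio. BAG3 stood at 1.61, 1.61, 1.58 and 1.43 times the level of HSPB8 after the combination and at 2.60, 2.61, 2.67 and 2.67 times in DMSO. HSPB8 took 12.8% ± 0.810 of the summed FPKM of the 6 small heat shock genes after the combination and 3.49% ± 0.219 in DMSO (SD, n = 4 each). HSPB1 took 86.8% ± 0.789 after the combination and 95.9% ± 0.205 in DMSO. The sum itself was 183 to 223 FPKM after the combination and 302 to 332 FPKM in DMSO, carried almost wholly by HSPB1. The ratio of HSPB1 to CRYAB overlapped between the groups (225 ± 25.7 after the combination and 186 ± 21.4 in DMSO).

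**Figure D4:**
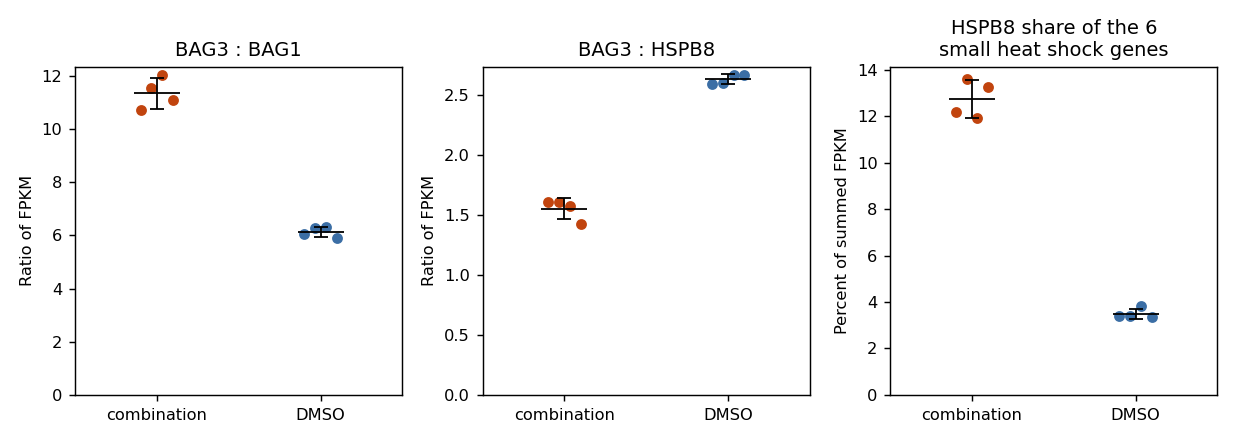
Ratios and a share computed within each library from FPKM, with a point per sample and the mean ± SD of 4 samples per group, combination left and DMSO right. BAG3 to BAG1 lies between 10.7 and 12.04 after the combination and between 5.91 and 6.30 in DMSO, and the HSPB8 share lies near 12.8% after the combination and 3.49% in DMSO.

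The genes around these families were read from lists of known partners. The counts of every list below are read against all genes tested, of which 36.9% were higher and 41.0% lower. The list of heat shock factors held HSF1, HSF2, HSF4 and HSBP1, a binding protein that restrains HSF1. HSF2 rose to 10.7 ± 0.506 FPKM after the combination, against 6.22 ± 0.737 FPKM in DMSO (SD, n = 4 each, adjusted p = 1.15e-05). HSF1, the chief activator of heat shock genes, had 20.6 ± 0.991 FPKM after the combination and 19.8 ± 1.42 FPKM in DMSO (adjusted p = 0.399). Its sign turned with library totals (-0.0151), and it passed as higher with upper-quartile scaling (0.14) and quantile normalization (0.15). HSF4 and HSBP1 did not pass either. These are RNA levels, and HSF1 is known to be regulated mostly as a protein.

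HSP70 and HSP110 genes, the chaperones that BAG proteins act on, were split (8 tested, 3 of them higher and 5 lower), and their median was -0.29 on the log2 scale, against -0.03 over all genes. HSPA8, the constitutive HSP70, was the largest decrease among them, at 77.2 ± 3.18 FPKM after the combination and 274 ± 7.67 FPKM in DMSO. HSPH1, an HSP110 that also acts as nucleotide exchange factor, fell to 11.3 ± 0.172 FPKM, against 17.3 ± 0.464 FPKM in DMSO. HSPA6, an HSP70 known to be strictly stress-induced, fell to 0.746 ± 0.197 FPKM after the combination, against 2.30 ± 0.331 FPKM in DMSO. HSPA4 and HSPA4L rose by log2 fold changes of 0.28 and 0.45. The near-identical genes HSPA1A (log2 fold change -0.35) and HSPA1B (0.64) can share reads, so their opposite signs are uncertain. Exons of AL671762.1 on the same strand also cover 36.5% of the exon length of HSPA1B. In FPKM, BAG3 stood above neither HSPA8 nor HSPB1 in any sample.

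Nucleotide exchange factors of HSP70 without a BAG domain numbered 3 higher and 4 lower of 8. HYOU1, which serves the HSP70 of the endoplasmic reticulum, stood at 17.4 ± 0.925 FPKM after the combination and 62.3 ± 1.36 FPKM in DMSO. The mitochondrial factors GRPEL1 and GRPEL2 moved in opposite directions, with log2 fold changes of 0.34 and -0.30. This list shares HSPH1, HSPA4 and HSPA4L with the list before it.

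Partners of BAG3 in selective autophagy were mostly higher, with 7 higher and 2 lower of 11 tested and a median log2 fold change of 0.29. SQSTM1 (p62), the receptor that carries ubiquitinated cargo to autophagosomes, stood at 327 ± 25.5 FPKM after the combination and 47.5 ± 2.35 FPKM in DMSO, and exons of other genes cover 22.04% of its length. MAP1LC3B, the autophagosome protein that SQSTM1 binds, rose to 50.4 ± 1.62 FPKM, against 20.1 ± 0.615 FPKM in DMSO. FLNA, an actin cross-linker of the filamin family that BAG3 clears, rose by a log2 fold change of 0.65. STUB1 stood at 46.2, 42.8, 47.1 and 45.5 FPKM after the combination and at 34.0, 34.0, 36.8 and 43.7 FPKM in DMSO, higher in the test (adjusted p = 0.00627) but with overlapping groups, and 42.4% of its exon length lies under JMJD8 on the opposite strand. Lower were SYNPO, which binds BAG3 in the actin cytoskeleton (log2 fold change -0.70), and HDAC6, which moves aggregates along microtubules (-0.30). TSC1 and VPS18 did not pass.

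Kinases of the small heat shock proteins split. MAPKAPK3 rose to 19.99 ± 1.06 FPKM after the combination, against 6.24 ± 0.121 FPKM in DMSO, and MAPKAPK2, the best known HSPB1 kinase, to 50.8 ± 1.67 FPKM, against 26.1 ± 0.0844 FPKM in DMSO (SD, n = 4 each). Their upstream kinase MAPK14 (p38 alpha) fell by 0.26 on the log2 scale, MAPKAPK5 fell by 0.32, and PRKD1, another HSPB1 kinase, fell to 3.49 ± 0.201 FPKM, against 7.75 ± 0.293 FPKM in DMSO. Of 7 tested, 2 were higher, 3 lower, and HSPBAP1 and PRKACA did not pass.

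Cytoskeletal clients of small heat shock proteins numbered 8 tested, 2 of them higher and 6 lower, and their median log2 fold change was -1.07. The intermediate filament genes SYNM (14.1 ± 0.517 after the combination and 59.0 ± 1.48 FPKM in DMSO) and NES (58.6 ± 1.05 after the combination and 188 ± 5.29 FPKM in DMSO) were among the lower ones. So was the tubulin gene TUBB, at 115 ± 2.99 FPKM after the combination and 412 ± 6.00 FPKM in DMSO. The keratins KRT18 and KRT8 rose by log2 fold changes of 0.75 and 0.37.

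Signalling partners of BAG proteins numbered 9 tested, 2 of them higher and 6 lower, with a median of -0.33. PINK1, a mitochondrial kinase of damage signalling that BAG2 is known to stabilise, stood at 19.7 ± 1.42 FPKM after the combination and 2.43 ± 0.320 FPKM in DMSO. The Hippo kinases LATS1 and LATS2, partners of BAG3, moved in opposite directions. LATS2 rose by 0.38 on the log2 scale, and LATS1 fell to 2.04 ± 0.270 FPKM after the combination, against 3.398 ± 0.129 FPKM in DMSO (limma adjusted p = 7.15e-05). The Hippo effectors YAP1 (2.47 ± 0.171 after the combination and 7.12 ± 0.525 FPKM in DMSO) and WWTR1 (12.8 ± 0.536 after the combination and 46.2 ± 1.22 FPKM in DMSO) fell. These lists were chosen with earlier results known, and no test of a list as a whole was made.

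**Figure D5:**
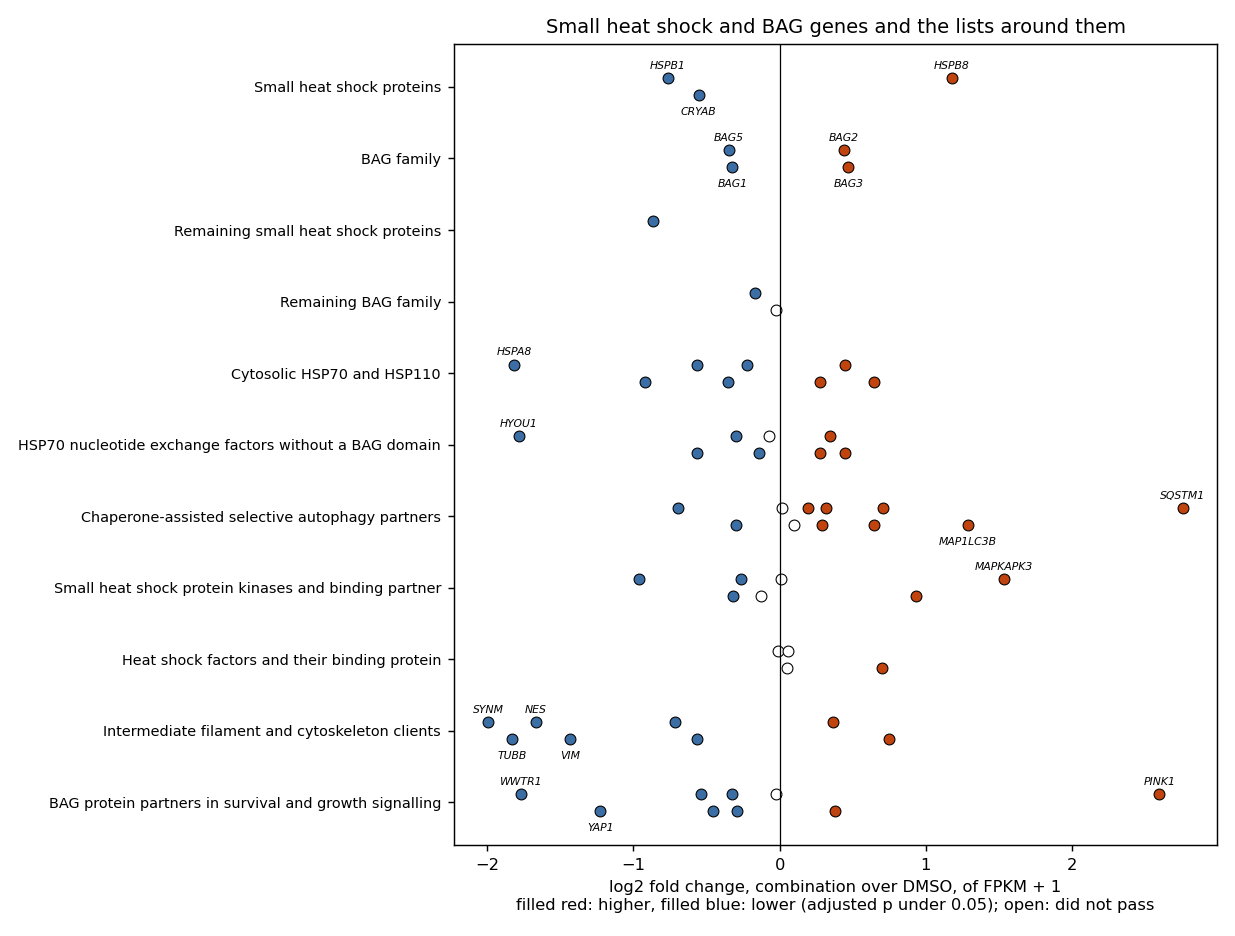
Log2 fold change (combination over DMSO) of each tested gene, by list, with filled points for genes that passed at an adjusted p under 0.05 (red higher, blue lower) and open points for those that did not. Only genes of the first 2 lists and genes beyond 1 on the log2 scale are named. SQSTM1 and PINK1 lie furthest right, and SYNM and TUBB furthest left.

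Genes whose pattern was most like that of a given gene over the 8 samples were INTS4 and OSER1 for HSPB8 (Pearson r of log2 values 0.999 for both), and SLC39A3 and FAM129B for BAG3 (0.998 and 0.997). For HSPB1 they were UXS1 and C8orf82 (0.996 for both), for CRYAB RRN3P3 and ATIC (0.988 and 0.987), and for BAG1 TNFRSF10B and IVD (0.995 and 0.994). For BAG2 they were PRAG1 and LINC00235 (0.996 for both), and for BAG5 H3F3A and MCIDAS (0.999 and 0.998). With 2 groups far apart, the points of such a pair share the group difference, and 2712 genes had r over 0.95 with HSPB8, 2303 with BAG3 and 2766 with HSPB1.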

How the data were processed

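The authors deposited 1 table of FPKM values for all 8 samples, per the file headers. Bowtie 0.12.2 is named in the submitters' processing notes, as are the builds GRCh37 and mm8, with no roles. Identifiers, coordinates and exon lengths of all 58735 genes equalled GENCODE release 29 (GRCh38). The labels name no counting tool. FPKM times length was a whole multiple of 1 step (100% of nonzero values, within 0.02), which gave the reads. Intervals on reads (95%, exact) cover counting error only.

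Limma 3.58.1 (R 4.3.3) was fitted to log2(FPKM + 1) with group as the only term and a trended prior, over genes averaging 1 FPKM or more. A call is a Benjamini-Hochberg adjusted p under 0.05 over those genes. Genes under the filter had exact permutation tests (SciPy). No 2 libraries of a group agreed within sampling noise (chi-square per degree of freedom of at least 3.05). Alternatives were scalings, filters, pseudocounts, voom, a replicate block and leaving out each sample.

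The genes and lists were chosen with earlier results of these data known. Named are all 10 genes, up to 3 called genes each way per list, and HSF1, HSPA8, HSPA1A, HSPA1B, SQSTM1 and STUB1, and for each tested gene the 2 genes with the highest Pearson r. One gene that this rule names is not reported here. HSPB3, CRYAA, HSPB9 and LATS1, marker genes and overlapping neighbours were named after their values were seen. Of the promoters of called genes, those of BAG1 and BAG5, without a match, are not printed.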

Additional observations from a re-analysis of the deposited data

Results flagged for a closer look

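In 19 groups of 4 samples with any reads of the 10 genes, 3 had a sample far from the others. For normally distributed values, about 1 in 20 groups is set apart in this way by chance. BAG3 in the combination had 1 sample at 42.1 FPKM while the other 3 lay between 40.1 and 40.4 FPKM, a gap of 0.847 of the range of the group. HSPB7 in DMSO had 3 reads in 1 sample and 0 in the others, and HSPB2 in the combination had 3 reads in 1 sample and 0 in the others, so that the gap was 1 times the range in both. That value is fixed wherever only 1 sample has reads, so the rate of 1 in 20 does not apply to these 2 groups.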

How the results depend on the processing

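All 7 tested genes kept direction and call in all 151 values from the alternatives (at most 22 a gene), and CRYAB, BAG1 and BAG2 had no value with a minimum mean of 5 FPKM. With that filter 2821 genes were higher and 3277 lower in the whole table, 2 of the 10 genes described were lower and 17 genes of the partner lists were lower. Without a filter 7747 genes were higher. The estimate ranged from 0.96 to 1.27 for HSPB8, from -1.04 to -0.20 for CRYAB and from 0.23 to 0.58 for BAG2, with the ends at a pseudocount of 5, voom or, for HSPB8, quantile normalization. Without mitochondrial reads in the totals, a scaling chosen after seeing the data, the calls of all 7 stood. HSF1 had a log2 fold change of -0.0151 with library totals, and was called higher with upper-quartile factors (0.14) and quantile normalization (0.15). HSPB6 was called lower without the filter by limma (-0.20) and voom (-2.03). Leaving out 1 sample gave differences of 0.0919 to 0.119 FPKM for HSPB7, where 3 against 4 samples cannot reach a p under 0.0571. Other scalings moved combination values against DMSO by -0.07 to 0.09 (log2). With the replicate number as a block 4839 genes were higher and 5404 lower, and no call of the 7 tested genes changed. Samples of the same number did not deviate together (correlations of -0.02 to 0.07), so no pairing by number was detectable. Whether the numbers pair samples in the design is not stated. Low depth limits HSPB2, HSPB6 and HSPB7.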
